A study of Mus musculus with 7 samples.

Results

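The genes described here are 10 members of the hormone and vitamin signalling system of the growth plate: the thyroid hormone receptors *Thra* and *Thrb*, the estrogen receptors *Esr1* and *Esr2*, the glucocorticoid receptor *Nr3c1*, the vitamin D receptor *Vdr*, the retinoic acid receptors *Rara*, *Rarb* and *Rarg*, and *Dio2*, a deiodinase that activates thyroid hormone inside the cell. They were chosen by symbol, through the Ensembl identifier of each in GENCODE, and they are 10 of the 43346 genes listed in the files. Dissected tibial growth plates of 7 male F1 mice from the cross C57BL/6JxCAST/EiJ (B6 and CAST), aged 21 days, were measured by total RNA sequencing after removal of ribosomal RNA. The labels give the 7 mice no treatment and the same genotype, so the comparison is between the B6 and the CAST allele inside each mouse, and every level is a description of 1 condition. The mice carry the numbers of their labels, 1, 2, 3, 4, 5, 7 and 8. P-values of allele ratios within mice measure the spread between these 7 animals.

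Nuclear receptors are proteins that bind a small lipid-soluble ligand and, through a pair of zinc fingers, a short DNA element near their target genes. The thyroid hormone, vitamin D and retinoic acid receptors bind mostly as heterodimers with a retinoid X receptor (RXR), and when no ligand is bound many of them hold corepressors at the gene. The estrogen and glucocorticoid receptors bind mainly as homodimers. In the growth plate, thyroid hormone is needed for chondrocytes to mature to hypertrophy, estrogen takes part in growth plate closure, excess glucocorticoid slows growth, and loss of vitamin D signalling disturbs mineralization at the lower end of the plate.

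The receptors share the stretch that reads DNA, and part of it is shown here. Where along the transcripts they are most alike was not tested. Each line gives 30 bases of coding sequence from the first zinc finger, 5′ to 3′ on the coding strand, from GENCODE M21 transcripts (GRCm38/mm10), and capitals mark the 3 codons of the P-box, the residues that contact the bases of the element. Where a window crosses a splice junction the coordinates span an intron.
*Thra*, chr11:98757009-98760890, exons 4 and 5, + strand: tgtGAGGGCtgcaagGGCttctttcgccgc
*Thrb*, chr14:18002614-18008583, exons 2 and 3, + strand: tgtGAAGGCtgcaagGGCttctttagaaga
*Vdr*, chr15:97876851-97884819, exons 3 and 4, − strand: tgtGAAGGCtgcaagGGTttcttcaggcgg
*Rara*, chr11:98966481-98968059, exons 4 and 5, + strand: tgtGAGGGCtgtaagGGCttcttccgacga
*Rarb*, chr14:16509061-16548428, exons 2 and 3, − strand: tgcGAGGGGtgcaagGGCtttttccgcaga
*Rarg*, chr15:102241185-102241850, exons 4 and 5, − strand: tgtGAAGGCtgcaagGGCttcttcagacgc
*Esr1*, chr10:4746768-4746797, exon 4, + strand: tgcGAAGGCtgcaagGCTttctttaagaga
*Esr2*, chr12:76165459-76165488, exon 3, − strand: tgtGAAGGAtgtaagGCCttttttaaaaga

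The last P-box codon was GGC or GGT, for glycine, in the thyroid hormone, vitamin D and retinoic acid receptors, and GCT or GCC, for alanine, in both estrogen receptors. Within the 30 bases *Thra* and *Thrb* shared 25, *Esr1* and *Esr2* shared 24, and *Vdr* and *Rarg* shared 27. Over whole transcripts the longest run of identical bases between any 2 of the 10 genes was 26, between *Thra* and *Thrb*. The reads were 75 bases long, so no read lying fully inside a shared run could be longer than that run. *Dio2* is a selenoprotein, and its active site is shown because it is written as a stop codon inside the reading frame, in capitals, read as selenocysteine with the help of *Secisbp2*.
*Dio2*, chr12:90729808-90729837, exon 2, − strand: ggttcagccaccTGAccacctttcactagg

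Totals over both alleles ran from 14098019 to 37849667 estimated counts per mouse, with a median of 27603769, and between 15.5% and 23.8% of them were the small RNAs *Rn7s1*, *Rn7s2* and *Rn7sk*. These totals are 2.1 to 5.65 times the average of 6700000 reads per sample that the labels give, for a reason not given in the sources used here. Whether each count is an independent fragment is therefore unknown, and limits for a count of 0 and binomial SDs hold for assigned counts only. B6 took 50.1 to 50.6% of the counts of a mouse. It took 90.2 to 91.6% of X-linked counts and 99.98 to 99.99% of mitochondrial counts, so the B6 allele was the maternal one in each mouse, and strain and parent of origin of an allele cannot be told apart. The labels call the tissue growth plate chondrocytes. All 14 chondrocyte markers checked, *Col2a1* and *Acan* among them, had 10 or more counts in all mice, with a summed level of 63840 to 103837 CPM (counts scaled to 1000000 per mouse). So did all 10 osteoblast markers (summed 74378 to 126646), all 7 osteoclast markers (4164 to 6049), all 11 marrow and blood markers (8469 to 20654) and all 8 muscle markers (3718 to 8385), and which cells the receptor transcripts came from was not tested. In such bulk tissue, fewer cells of a type and less RNA per cell cannot be told apart.

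Of the 10 genes, *Rarg*, *Thra* and *Vdr* had the highest levels per kilobase and *Esr2* was close to absent. Levels are given as CPM of both alleles per kilobase of merged exons, as mean ± SD over 7 mice, and are a description with no test. *Rarg* had 21.8 ± 1.7, *Thra* 12.2 ± 0.874, *Vdr* 10.5 ± 2.2 and *Nr3c1* 7.38 ± 1.17. Among the 15833 protein-coding genes tested, *Rarg* stood at percentile 92.6, *Thra* at 86.1, *Vdr* at 83.7 and *Nr3c1* at 76.9. *Rara* followed with 5.42 ± 0.672 (percentile 70.1). The remaining genes were low: *Esr1* 2.14 ± 0.303, *Dio2* 1.94 ± 0.725, *Thrb* 1.01 ± 0.141 and *Rarb* 0.489 ± 0.143, at percentiles 46.4, 44.1, 31.1 and 21.3. Neighbours in this order kept their places in all 7 mice, except that *Thra* was above *Vdr* in 5 of 7 and *Esr1* above *Dio2* in 6 of 7. With the length of the longest transcript in place of merged exons the order of the means was the same, but *Thra* rose to 23 and *Esr1* to 4.6.

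**Figure D1:**
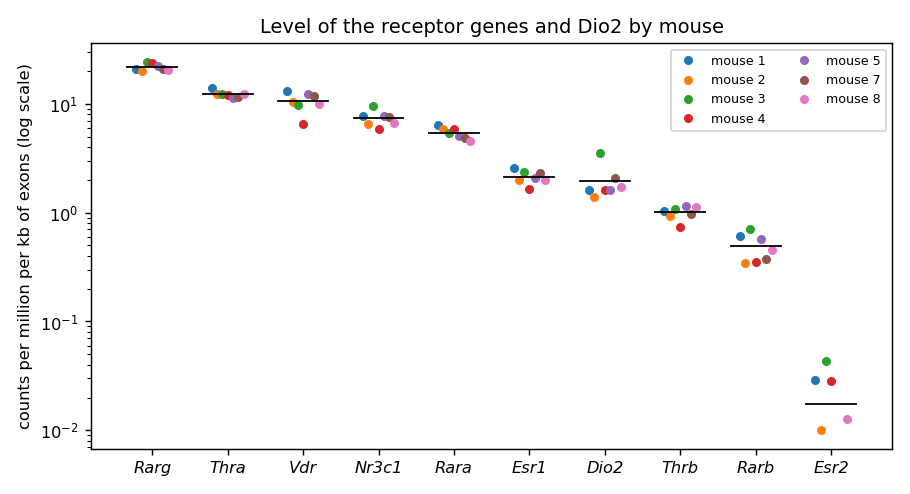
Level of each gene in each mouse, in CPM per kilobase of merged exons on a log scale, with 1 coloured point per mouse and a black line at the mean of 7 mice. Rarg lies between 20.2 and 24.3, Rarb between 0.345 and 0.709, and the 2 mice with no Esr2 count are not drawn.

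Within each receptor family a single member carried most of the transcript. Of the thyroid hormone receptors, *Thra* was 9.68 to 16 times the level of *Thrb* per kilobase, with a median of 11.9 over the mice. Of the retinoic acid receptors, *Rarg* was 3.26 to 4.51 times *Rara* (median 4.35), and *Rara* was 7.61 to 17.1 times *Rarb* (median 10.5). The spans of these ratios did not reach 1 in any mouse. *Esr2* had 11 counts in all 7 mice together, at most 4 in a mouse, and none in mice 5 and 7, where a count of 0 allows up to 0.0793 and 0.213 CPM (3 counts, counting error only). *Esr1* had 447 to 1072 counts per mouse. The RXR partners showed the same kind of order. *Rxra* had a level of 19.9 ± 1.34 and *Rxrb* 10.1 ± 0.909, and *Rxrg*, at 0.614 ± 0.07, was lower than *Rxra* by a factor of 26.7 to 42.2.

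How steady the total level was from mouse to mouse differed between the genes. The CPM of *Thra* ran from 51.8 in mouse 5 to 64.3 in mouse 1, and those of *Rarg* from 86 in mouse 2 to 104 in mouse 3. Their coefficients of variation were 7.16% and 7.79%, against a median of 15% over autosomal genes that reached 10 counts in all mice. *Vdr* and *Dio2* varied more. *Vdr* had 74.3, 58.2, 54.9, 36.5, 69.8, 66 and 56 CPM in mice 1, 2, 3, 4, 5, 7 and 8, a coefficient of variation of 21%. *Dio2* had 9.41, 8.17, 20.4, 9.32, 9.38, 12.1 and 10 in the same order, a coefficient of 37.4%. In each case a single mouse stood apart, mouse 4 with the least *Vdr* and mouse 3 with the most *Dio2*. Mouse 4 also had the lowest *Esr1* (22.4), *Nr3c1* (45.3) and *Thrb* (5.52) in CPM, together with the highest summed chondrocyte markers, 103837, and the lowest osteoclast, muscle and adipocyte markers. The part of tissue composition in these levels was not tested.

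Among the genes of the lists described further on and of the marker lists, 171 in all, the one closest to *Esr1* across the mice was *Hsd17b4*, with a root-mean-square difference of 0.065 in centred log2 CPM over 7 mice, against a spread of 0.192 for *Esr1* itself. The closest to *Vdr* were the chaperone genes *Stip1* (0.112) and *Ptges3* (0.122), against a spread of 0.31. For *Rara* they were *Sp7* (0.0703) and *Ppard* (0.0863), for *Nr3c1* *Kat2b* (0.0901), and for *Thrb* *Hsd11b2* (0.0931) and *Sgk1* (0.094), with spreads of 0.163, 0.205 and 0.187. *Kat2b* was also the second closest to *Esr1* (0.0702). For *Thra* the closest gene, *Runx2* at 0.0883, was little nearer than the spread of *Thra* itself, 0.092, and the second was *Hr* (0.0927). The nearest to *Rarg* were *Hsd17b7* (0.0871) and *Rxrg* (0.0983), to *Rarb* *Ncoa7* (0.148) and *Lcor* (0.15), and to *Dio2* *Cubn* (0.248) and *Dbp* (0.249), against spreads of 0.102, 0.322 and 0.394. Small differences also occur between any genes that vary little, and these are descriptions of 7 libraries.

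Between the alleles, *Vdr* and *Esr1* were higher from CAST, and no receptor gene was called with B6 higher. The test was edgeR's likelihood-ratio test on the allele columns over all tested genes, with a gene called at a false discovery rate (FDR) under 0.20. This fit did not pair the alleles of a mouse, so its SE and FDR also hold differences in level between mice. Of the 10 genes, 9 could be tested and *Esr2* could not, having no counts in 2 mice. The 2 calls are 22.2% of the 9, while 32.6% of all 21805 tested genes were called, 15.4% with CAST higher and 17.2% with B6 higher. A share of 2 in 9 lies below this background and is no result about the receptors as a group.

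*Vdr* encodes the receptor through which calcitriol, the active form of vitamin D, acts on its target genes. The gene lies on chromosome 15 (chr15:97854425-97910630, − strand). CAST counts were 1388, 1052, 930, 462, 1620, 566 and 797 in mice 1, 2, 3, 4, 5, 7 and 8, and B6 counts in the same order were 886, 680, 586, 306, 1021, 365 and 531. CAST was the higher allele in all 7 mice, though the counts of the alleles overlap between mice because the libraries differ in depth. The CAST share was 60.8% ± 0.527 (SD, n = 7) and stayed between 60% and 61.3%. The log2 fold change of CAST over B6 was 0.65 (SE 0.123), or 1.57-fold, with an edgeR FDR of 1.68e-06. The mean log2 ratio within mice was 0.63 ± 0.032, with an exact two-sided sign-flip permutation p of 0.0156, the smallest that 7 mice allow, and a Benjamini-Hochberg value of 0.0682 over all tested genes. Of autosomal genes that reached 10 counts in all mice, 12.6% likewise had CAST higher in all 7 mice.

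*Esr1* encodes the estrogen receptor that carries most of the estrogen response of bone, and lies on chromosome 10 (chr10:4611593-5005614, + strand). CAST counts were 658, 458, 470, 268, 596, 210 and 339 in mice 1, 2, 3, 4, 5, 7 and 8, against B6 counts of 413, 359, 415, 202, 476, 237 and 307. CAST was higher in 6 mice and B6 in mouse 7. The CAST share ran from 47% in mouse 7 to 61.4% in mouse 1, with a mean of 54.7% ± 4.48. The log2 fold change was 0.30 (SE 0.104), or 1.23-fold, with an edgeR FDR of 0.0226, and it stayed under 0.20 with any mouse left out, at most 0.142 without mouse 1. The exact two-sided sign-flip permutation test gave p = 0.0469 (0.147 after adjustment over all genes). This p rose to 0.0625 or 0.0938 when any of mice 1, 2, 3, 4, 5 or 8 was left out, and 6 mice allow no p below 0.0312. The mean log2 ratio within mice was then 0.20 to 0.29, against 0.27 with all 7.

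**Figure D2:**
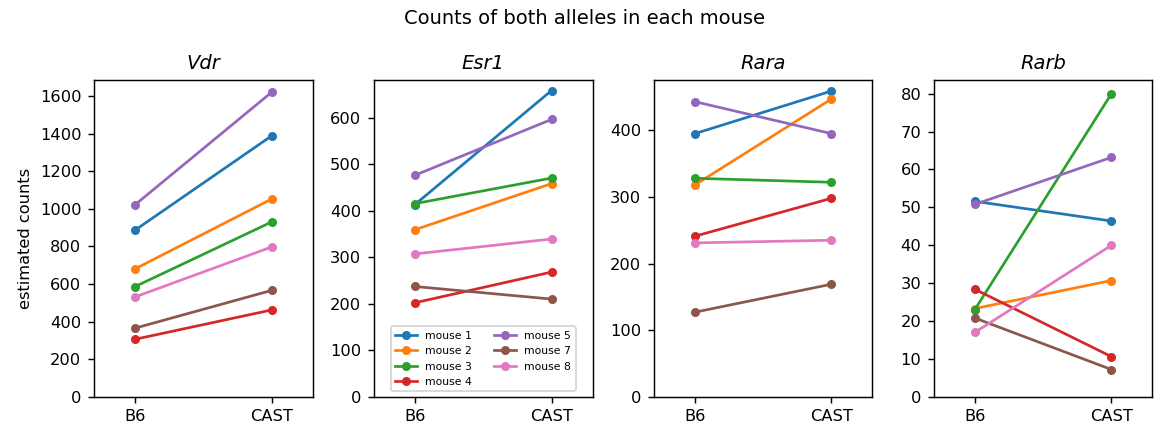
Estimated counts of the B6 and the CAST allele of Vdr, Esr1, Rara and Rarb, with a line joining both alleles of each of the 7 mice. The lines of Vdr all rise by a like proportion, that of mouse 7 falls for Esr1, and those of Rarb cross.

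None of the retinoic acid receptors was called over the 7 mice in the fit without a block. *Rara*, on chromosome 11 (chr11:98927818-98974942, + strand), had CAST shares of 53.8, 58.4, 49.5, 55.3, 47.1, 57 and 50.3% in mice 1, 2, 3, 4, 5, 7 and 8, and CAST was higher in 5 of them. Its log2 fold change was 0.21 (SE 0.123, edgeR FDR 0.252). With the mouse as a replicate block it was 0.19 with an edgeR FDR of 0.105, and the call was made. Under that block 42.7% of all tested genes were called. With the block in edgeR's quasi-likelihood test, which called 37.6% of all genes, the FDR was 0.18, and *Rara* was also called without mouse 5 but with no block (edgeR FDR 0.168). Its total was a whole number (within 1e-04) in only 1 mouse, and how reads were divided between *Rara* and other genes was not tested.

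*Rarg*, the highest of the 10 genes per kilobase and the retinoic acid receptor best known from cartilage, lies on chromosome 15 (chr15:102234938-102257517, − strand). Its CAST share ran from 48.2% in mouse 4 to 56.4% in mouse 8, with a mean of 51.3% ± 2.77, and CAST was higher in 4 of 7 mice. The log2 fold change was 0.09 (SE 0.104, edgeR FDR 0.688). *Rarb*, which retinoic acid induces through its own promoter, lies on chromosome 14 (chr14:16430839-16819156, − strand) and had only 28 to 114 counts per mouse. Its CAST share was 47.4, 56.9, 77.7, 27.1, 55.5, 25.7 and 70.2% in mice 1, 2, 3, 4, 5, 7 and 8. The mice thus leaned strongly to either allele, and the log2 fold change of 0.30 had an SE of 0.312 (edgeR FDR 0.605). Without mouse 3 its sign turned, to -0.03.

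The promoter of *Rarb* is shown because it held an element that no other promoter among these genes did. Promoter sequences (250 bases before to 50 after the start) came from RefSeq on GRCm38.p6 and covered 8 of the 10 genes in 14 promoters. They were searched on both strands for pairs of receptor binding sites, each being the consensus AGGTCA or, as a variant of it, the site AGTTCA, the site GGGTCA or the site GGTTCA, as direct repeats with 3, 4 or 5 bases between them or as inverted repeats with 3 between. A direct repeat with 5 bases between, the spacing preferred by retinoic acid receptors, was in the *Rarb* promoter, 53 to 37 bases before the start, with its sites in capitals.
*Rarb*, chr14:16575491-16575551, − strand: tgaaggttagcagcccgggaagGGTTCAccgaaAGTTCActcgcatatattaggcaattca
Of all 32851 promoters in the table, 32 (0.0974%) held such a repeat. The spacing of 3 occurred in 0.0396% of all promoters, that of 4 in 0.0822% and the inverted repeat in 0.07%, and none of these was in the 14 promoters. A match of letters is a description and was not tied to binding.

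Neither thyroid hormone receptor was called, and in both the mice lay on either side of an equal share. *Thra*, on chromosome 11 (chr11:98740638-98769006, + strand), had CAST shares of 48.7, 49.6, 44.4, 48.7, 46.8, 46.5 and 57.2% in mice 1, 2, 3, 4, 5, 7 and 8. B6 was the higher allele in 6 mice and CAST in mouse 8. The log2 fold change was -0.04 (SE 0.0968, edgeR FDR 0.903). Without mouse 8 the mean log2 ratio within mice moved from -0.07 to -0.15, and the exact two-sided sign-flip permutation p from 0.484 to 0.0312, the smallest that 6 mice allow. This leaves out the only mouse with CAST higher, and the edgeR value without it was -0.12 with an FDR of 0.497. The last exons of *Thra* overlap those of *Nr1d1*, the gene of the clock repressor REV-ERB alpha, by 263 bases on the opposite strand. *Thra* totals were not whole numbers (within 1e-04) in any mouse. Whether strand was used in the counting is not given in the sources used here, so reads from the overlap cannot be assigned to either gene. *Nr1d1* had a CAST share of 46.6% in mouse 8 and a log2 fold change of 0.07 (edgeR FDR 0.915).

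*Thrb*, on chromosome 14 (chr14:17660261-18038090, + strand), had 101 to 325 counts per mouse. Its CAST share ran from 35.8% in mouse 1 to 56.1% in mouse 8, with a mean of 48% ± 6.38. CAST was higher in 3 of 7 mice and the log2 fold change was -0.09 (SE 0.146, edgeR FDR 0.824). *Dio2*, on chromosome 12 (chr12:90724552-90738438, − strand), likewise had CAST shares from 42% in mouse 1 to 54.8% in mouse 8 and a log2 fold change of -0.02 (SE 0.217, edgeR FDR 1). The high *Dio2* of mouse 3 came from both alleles, with 272 B6 and 292 CAST counts.

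*Nr3c1*, on chromosome 18 (chr18:39410545-39519421, − strand), encodes the receptor for corticosterone, the main glucocorticoid of the mouse. CAST shares were 45.8, 49, 52.6, 52.4, 53.1, 60.5 and 48.2% in mice 1, 2, 3, 4, 5, 7 and 8. CAST was higher in 4 mice, and mouse 7 lay farthest from an equal share. The log2 fold change was 0.12 (SE 0.114, edgeR FDR 0.567) and fell to 0.04 without mouse 7.

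**Figure D3:**
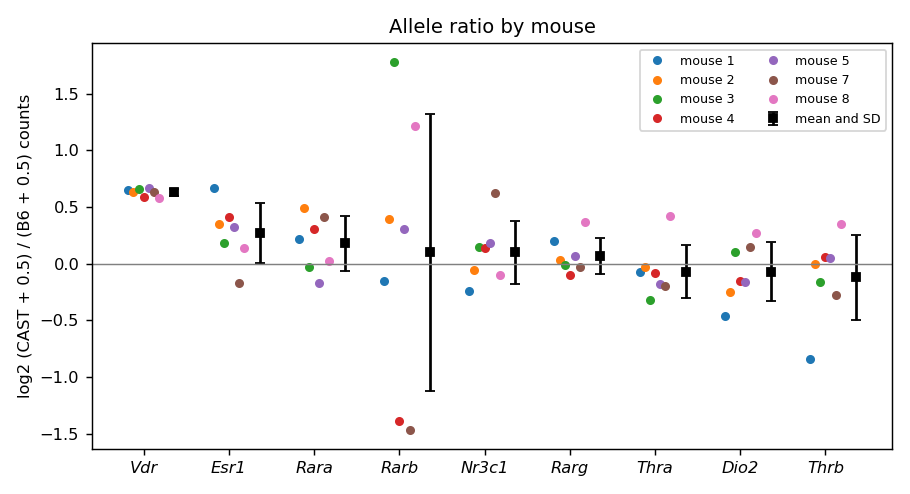
Log2 ratio of CAST to B6 counts, with 0.5 added to each, for the 9 genes tested, with 1 coloured point per mouse and a black square and bar for the mean and SD of 7 mice. Vdr lies between 0.58 and 0.67 in every mouse, Rarb runs from -1.47 to 1.78, and the grey line marks equal alleles.

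The allele ratio of *Vdr* was far steadier than that of the other genes. Its SD over the mice was 0.032 on the log2 scale, while binomial counting at its counts alone would give 0.0805, a quotient of 0.398. Over 13861 autosomal genes (10 or more counts in all mice, CAST share from 5 to 95%) the median quotient was 1.61, and 92 genes, or 0.664%, had a lower one than *Vdr*. Of 3234 genes with like counts, 24 had an SD no larger, against a median SD of 0.14. In the other members the SD was above the binomial value, by 1.43 times in *Dio2*, 1.71 in *Thrb*, 1.98 in *Rara*, 2.37 in *Esr1*, 2.62 in *Rarg*, 2.99 in *Thra*, 3.12 in *Rarb* and 3.49 in *Nr3c1*. *Thra*, *Nr3c1* and *Vdr* had nearly the same mean counts, 1489, 1509 and 1599, so the depth of the genes differed little. The deposited counts include reads that do not separate the alleles, and how many reads did is unknown. The binomial value is a yardstick for assigned counts and not for informative reads.

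**Figure D4:**
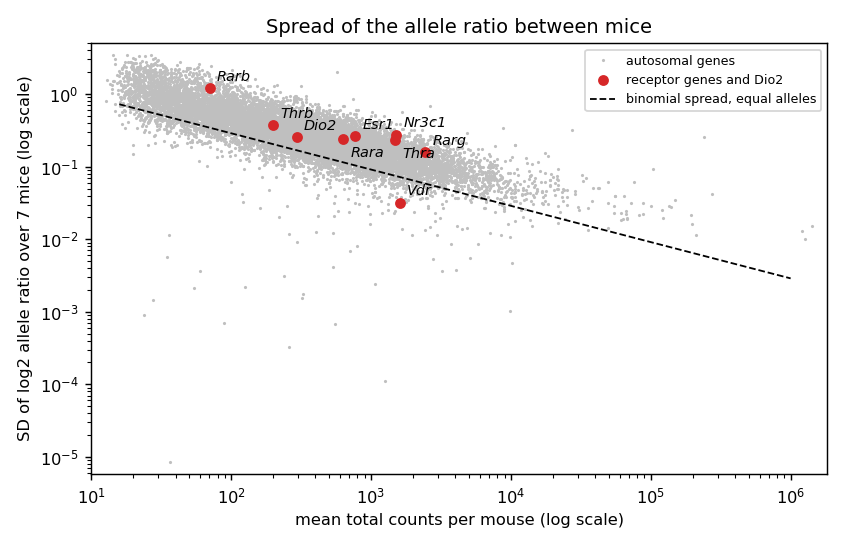
SD over 7 mice of the log2 allele ratio against the mean total counts per mouse, both on log scales, for 13861 autosomal genes in grey and the 9 tested members in red. The dashed line is the SD that binomial counting gives for equal alleles, and Vdr, at 0.032, is the member below it.

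None of the RXR partners, with which most of these receptors pair, was called. The log2 fold changes were 0.00 for *Rxra*, -0.15 for *Rxrb* and -0.00 for *Rxrg*, with edgeR FDR values of 1, 0.393 and 1. *Rxrb* had CAST shares from 40.6% in mouse 5 to 55.4% in mouse 3. The lists of RXR partners, other nuclear receptors, cofactors, supply enzymes, targets and chromosomal neighbours held 142 genes listed in the files. Of these 120 were tested and 34 called, 19 with CAST and 15 with B6 higher, or 28.3% against 32.6% of all genes. On the autosomes 30 of 116 were called (25.9% against 31.2% of all autosomal genes), 19 with CAST and 11 with B6 higher. With the mouse as a replicate block 53 of the 120 were called (28 CAST, 25 B6), while 42.7% of all tested genes were. The 4 X-linked genes tested, *Tbl1x* and *Tsc22d3* among them, were all called with B6 higher. Males carry 1 X chromosome, from the mother, so for these genes that direction was set by the cross.

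**Figure D5:**
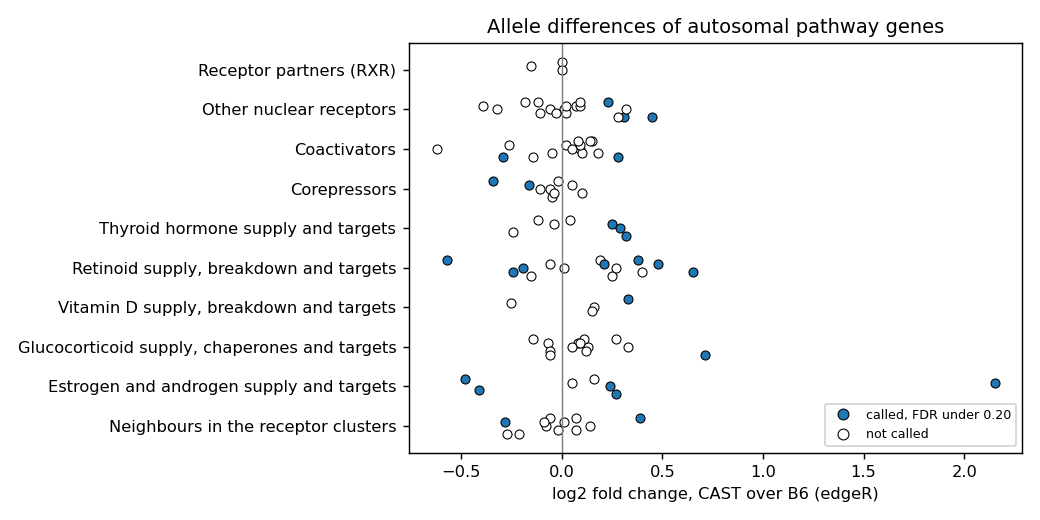
Log2 fold change of CAST over B6 in edgeR for autosomal genes of each list that reached 10 counts in all mice, with 1 circle per gene, filled where the gene was called at an FDR under 0.20. Greb1 stands apart at 2.15, and the retinoid list has filled circles on both sides of 0.

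Of the other nuclear receptors, 26 of 36 were tested, 3 were called with CAST higher and 2 with B6 higher, and the median log2 fold change was 0.02 against 0.01 over all tested genes. *Nr1h3*, an oxysterol receptor, had a log2 fold change of 0.31 (edgeR FDR 0.0949) with CAST higher in all 7 mice. Of 15 coactivators 1 was called on each side: *Ncoa4* at 0.28 (edgeR FDR 0.104) and *Smarca4*, an ATPase of the SWI/SNF chromatin remodeller, at -0.29 (edgeR FDR 0.0499). The block raised the coactivators called to 4 with CAST and 2 with B6 higher, where it called 42.7% of all tested genes. All 3 of the 10 corepressor genes called had B6 higher, among them *Hdac3*, the deacetylase of the NCoR complex, at -0.16 (edgeR FDR 0.194) and the X-linked *Tbl1x* at -4.73. Their median was -0.06, and the corepressor gene *Ncor1* itself had -0.05 and was not called.

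In the thyroid hormone list, 12 of 13 genes were tested, 4 were called with CAST and 1 with B6 higher, and the median log2 fold change was 0.27. *Slc7a5*, an amino acid carrier that also takes up thyroid hormone, had 0.32 (edgeR FDR 0.0617). *Secisbp2*, which binds the selenocysteine element of the *Dio2* transcript, had 0.29 (edgeR FDR 0.0285), and CAST was higher in all 7 mice for both. Of the other deiodinases *Dio1* had 2.57 and *Dio3*, which inactivates thyroid hormone, 6.43 counts per mouse on average, against 293 for *Dio2*, and neither was called.

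In the retinoid list 16 of 17 genes were tested and 4 were called on each side, with a median of 0.20, while 32.6% of all tested genes were called. With CAST higher in all 7 mice were *Rarres2*, the gene of the chemoattractant chemerin (0.65, edgeR FDR 5.95e-05), and *Rbp4*, the carrier of retinol (0.38, edgeR FDR 0.00664). With B6 higher in all 7 were *Aldh1a1*, a retinaldehyde dehydrogenase (-0.57, edgeR FDR 0.0125), and *Tgm2*, a transglutaminase induced by retinoic acid (-0.24, edgeR FDR 0.0407). *Aldh1a3* had the highest level of the 3 dehydrogenases, 16.4 ± 3.19 against 1.13 ± 0.287 for *Aldh1a1* and 1.29 ± 0.353 for *Aldh1a2*, and was not called (0.01, edgeR FDR 1). These 3 enzymes make retinoic acid from retinaldehyde.

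In the vitamin D list only 7 of 13 genes could be tested. *Cyp24a1*, the enzyme that breaks down calcitriol and a strong target of *Vdr*, had no counts in any mouse, and *Cyp27b1*, which makes calcitriol, had 8.71 counts on average. A single gene was called, *Bglap*, the osteoblast gene of osteocalcin, with 0.33 (edgeR FDR 0.0273) and CAST higher in all 7 mice. Near-identical copies of *Bglap* exist and its value is uncertain for that reason. *Bglap2* had 9747 B6 and 15.8 CAST counts per mouse on average, and over *Bglap*, *Bglap2* and *Bglap3* together the direction turned, with a CAST share of 45.2% ± 1.12 and B6 higher in all 7 mice. With the mouse as a replicate block *Spp1*, the gene of osteopontin, was called too (edgeR FDR 2.49e-08, against 0.583 without the block), with CAST higher in 6 of 7 mice. The median of the list was 0.15.

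In the glucocorticoid list 14 of 15 genes were tested and 1 was called on each side, *Hsd11b2* at 0.71 (edgeR FDR 0.152, CAST higher in 4 of 7 mice) and the X-linked *Tsc22d3* at -8.53. With the mouse as a replicate block 6 were called with CAST and 3 with B6 higher. That block called 42.7% of all tested genes, and 49% of autosomal genes with 10 or more counts in all mice. *Fkbp5*, a chaperone gene induced by glucocorticoid, was one of those gained: its log2 fold change of 0.13 had an SE of 0.316 without the block (edgeR FDR 0.909), and its FDR was 0.00111 with it, CAST being higher in all 7 mice. In the estrogen and androgen list 8 of 11 genes were tested, 4 called with CAST and 2 with B6 higher, while 32.6% of all tested genes were called. The median was 0.20, and 7 of the 8 genes reached 10 counts in all mice. *Greb1*, an estrogen-induced cofactor of the estrogen receptor, had a log2 fold change of 2.15 (edgeR FDR 1.65e-13) or 4.44-fold, from 37.4 counts per mouse, and a CAST share of 79.8% ± 9.31. *Hsd17b12*, at 0.24 (edgeR FDR 0.115), was higher from CAST in all 7 mice too. With B6 higher in all 7 were *Igfbp4*, a binding protein of insulin-like growth factors (-0.48, edgeR FDR 1.22e-06), and *Hsd17b4*, a peroxisomal enzyme that also oxidizes estradiol (-0.41, edgeR FDR 9.23e-05).

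Genes beside the receptors on the chromosome were compared with them last. *Thra* and *Rara* lie in the same stretch of chromosome 11, and *Thrb* and *Rarb* in the same stretch of chromosome 14. Of 12 neighbours in both clusters 1 was called on each side, with a median of -0.04. *Casc3*, which encodes a core protein of the exon junction complex and lies between *Thra* and *Rara*, had a log2 fold change of 0.39 (edgeR FDR 0.000432), with CAST higher in all 7 mice and a CAST share of 56.4% ± 2.67. *Thra* on the one side (-0.04) and *Rara* on the other (0.21) were not called. With the block 2 of the 12 were called with CAST and 2 with B6 higher, against 42.7% of all tested genes called. On chromosome 14, *Top2b*, which shares 1793 exon bases with *Rarb* on the opposite strand, had a log2 fold change of -0.06 (edgeR FDR 0.86) from 1181 counts per mouse. *Rarb* totals, at 28 to 114, were whole numbers (within 1e-04) in all 7 mice, and how reads of the shared bases were divided was not tested. *Gm26512*, which overlaps *Dio2* by 100 bases on the opposite strand, had 9.01 counts on average.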

How the data were processed

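Total RNA of tibial growth plates, proximal and distal, from each of 7 mice was sequenced as stranded 75-base read pairs. The authors used Bowtie (3 mismatches allowed) on the transcriptomes of both strains (mm10) and divided reads among genes and alleles with EMASE, and deposited the resulting estimated counts without normalization, so values can be fractional. GENCODE M21 held 42462 of 43346 identifiers.

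Genes with a count above 0 for an allele in every mouse (21805) were tested. Counts were rounded and compared with edgeR 4.0.16 (R 4.3.3; TMM factors, glmFit, glmLRT), and ratios within mice (pseudocount 0.5) by exact two-sided permutation of signs. Both alleles come from the same animal, so the mouse numbers pair them: deviations correlated at 0.184 on average within a mouse (0.047 to 0.33) and at -0.031 between mice. Alternatives were this block, DESeq2 1.42.0, the quasi-likelihood test, other library totals, filters and thresholds, unrounded counts, lengths and pseudocounts, and each mouse left out. The fit was tested on simulated data, with 200 of 15102 genes changed 2-fold and the alleles of a mouse drawn independently. There more of the calls of the likelihood-ratio test were false than its FDR threshold of 0.20 allows, 32.7% without and 36.5% with the block. For the quasi-likelihood test 22.6% were false without and 18.5% with it. Since the simulated alleles were not paired and few genes were changed, the simulation cannot judge the block in these data.

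The members, lists and tests were chosen with earlier results of these data known. Named were all members, RXR partners, overlapping genes, up to 2 genes per list and direction with the largest called change (at least 10 counts in every mouse, the same direction in all 7), and the 2 genes nearest each member in level. Other named genes (*Ncor1*, *Dio1*, *Dio3*, *Crym*, *Slco1c1*, *Aldh1a2*, *Aldh1a3*, *Cyp24a1*, *Cyp27b1*, *Bglap2*, *Bglap3*, *Spp1*, *Fkbp5*, *Zbtb16*) were chosen after their values were seen. Depth (14098019 to 37849667 counts per mouse) limits genes with few counts. Some genes that the rule or the lists cover are not reported here.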

Additional observations from a re-analysis of the deposited data

Results flagged for a closer look

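In 3 of 18 sets of 7 values (CPM and the log2 allele ratio of each of the 9 tested genes) a mouse stood farther from the others than Dixon's 95% limit for 7 values. Chance alone does so in about 1 in 20 sets, or 0.9 of 18. The log2 ratio of CAST to B6 counts of *Thra* was 0.42 in mouse 8, against -0.32 to -0.03 in the other mice. *Vdr* had 36.5 CPM in mouse 4, against 54.9 to 74.3, and its gap on the log2 scale, 0.574, was barely over the limit. *Dio2* had 20.4 CPM in mouse 3, against 8.17 to 12.1.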

How the results depend on the processing

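*Vdr* and *Esr1* were called in all 19 fits, with log2 fold changes of 0.64 to 0.66 and 0.22 to 0.37. With each mouse left out, 2 or 3 members and 25 to 35 pathway genes were called. The pathway genes called went from 34 to 53 (28 CAST, 25 B6) with the mouse as a replicate block, to 53 (26 CAST, 27 B6) with the block and 1 library size per mouse, and to 20 (9 CAST, 11 B6) at an FDR under 0.05; more genes of all tested were called under the block (42.7%) and fewer at 0.05 (22.1%). Besides *Rara* (FDR 0.105, and 0.18 with the quasi-likelihood test), the block changed no call of a member. Signs turned with a mouse left out in 3 genes never called. *Thrb* ran from -0.17 to 0.03 (mean ratio -0.19 to 0.00, highest without mouse 1), *Rarb* from -0.03 to 0.49 (mean ratio -0.18 to 0.36, lowest without mouse 3, and -0.09 without mouse 8) and *Dio2* from -0.08 to 0.03 (highest without mouse 1, 0.00 without mouse 2). The cause was not tested. At this depth *Esr2* could not be tested.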

Other observations

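Some genes known to respond to glucocorticoid varied widely between the mice. Of the 14 genes of the glucocorticoid list tested, 9 had a larger coefficient of variation than *Nr3c1* (15.9%). Over the list it ran from 8.02% in *Sgk1* to 47.2% in *Fkbp5*. The median over autosomal genes that reached 10 counts in all mice was 15%, close to *Nr3c1*, so many genes outside the list also vary more than *Nr3c1*. *Fkbp5* had 84, 81.7, 23, 24, 46.6, 65.9 and 86.7 CPM (counts scaled to 1000000 per mouse) in mice 1, 2, 3, 4, 5, 7 and 8, and *Zbtb16*, a transcription factor gene, had 62.4, 56.6, 21.9, 21.2, 33.1, 43.8 and 52.4. Both were lowest in mice 3 and 4. *Nr3c1* was highest in mouse 3 (73.3) and lowest in mouse 4 (45.3). *Sgk1*, another gene that glucocorticoid induces, kept between 67.2 and 84. *Fkbp5* and *Zbtb16* were chosen after their values were seen, all 7 mice were of 1 condition, and no test was run.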
